A study of Mus musculus with 8 samples.

Results

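Anti-Brdt ChIP-seq islands of meiotic spermatocytes were compared between wild-type mice and mice whose Brdt lacks the first bromodomain (BD1del). All islands on chromosomes 1 to 19 of mm9 were taken from the 2 spermatocyte lists, 29531 in wild type and 105380 in BD1del. These 134911 islands were part of 426082 islands in the 4 lists of the series, which also covers round spermatids. An island is a stretch of 200-base windows in which ChIP reads cluster above a control library. An island that overlapped the other genotype's list by 1 base or more was called met, and any other island not met.

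Both samples were male mouse germ cells, from pooled spermatocyte fractions of a BSA gradient. The wild-type sample (genotype wild type, strain C57BL/6) pooled 10 mice. Its chromatin was cut with MNase to near 200 bp, and 500 µg went into a ChIP with 0.6 µg of an immunopurified rabbit antibody raised against recombinant Brdt. For the Brdt BD1del sample the strain, number of mice, age and chromatin digestion were not stated in the labels. No treatment was named for either. Both libraries were paired-end, with inserts near 150 bp. The cell type rests on the labels, since an island list holds no expression of marker genes. Each genotype had 1 ChIP library, so no difference between genotypes could be tested. Intervals in parentheses after a share are 95% limits by the exact Clopper-Pearson method. They cover counting error only, as neighbouring islands are not independent.

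Brdt is the testis-specific member of the BET family, proteins that bind acetylated histones through a pair of bromodomains. The first bromodomain recognises histone H4 that carries more than one acetyl group, and male mice that lack it are sterile. Brdt is present from meiotic prophase onward, where it takes part in the transcription of meiotic and post-meiotic genes, and in spermatids it takes part in the replacement of histones.

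Most islands of either genotype had no counterpart in the other. Of the 29531 wild-type islands, 8981 were met by BD1del, which is 30.4% (29.9 to 30.9%) and left 20550 not met. Of the 105380 BD1del islands, 9442 were met by wild type, which is 8.96% (8.79 to 9.13%) and left 95938 not met. BD1del islands covered 149 Mb, or 6.18% of the span of the autosomes, and wild-type islands covered 83.4 Mb, or 3.46%. The bases inside islands of both genotypes came to 16.0 Mb. These were 19.2% of the bases covered in wild type and 10.7% of those covered in BD1del. At equal list length the shares must be close, because most met islands met exactly 1 island of the other list. In the full lists this held for 93.2% of the met wild-type and 97.5% of the met BD1del islands. Among the 10000 islands of lowest p in each, 8.97% of the wild-type and 9.1% of the BD1del islands were met. Among islands with a fold of 2 or more, 9399 in wild type and 99245 in BD1del, the shares were 22.4% and 2.17%.

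Depth and read set differed along with the genotype. Autosomal islands held 4408044 ChIP and 4683073 control reads in wild type, and 5398790 ChIP and 8632837 control reads in BD1del. From the deposited counts and folds, the depth of the control over that of the ChIP library came to 1.79 in wild type and 5.64 in BD1del. The read sets named in the list labels also differed between the genotypes. The deposited fold is the authors' ratio of ChIP reads to control reads scaled by library size. At least 2-fold enrichment was reached by 31.8% of the wild-type islands and by 94.2% of the BD1del islands. Fold levels of the lists are on different scales, and genotype, read set and depth cannot be told apart.

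Met islands, by an overlap of 1 base or more, were longer than islands not met in both genotypes. In wild type the median length was 2600 bases (quartiles 1400 and 4600) for met islands and 2000 bases (1200 and 3200) for those not met. In BD1del it was 1800 bases (1000 and 3000) for met islands and 1200 bases (600 and 1800) for those not met. Islands of a single window made up 1.96% of the met and 3.29% of the not met islands in wild type. In BD1del they made up 3.45% of the met and 9.31% of the not met islands. Where an overlap of at least 50% of an island was asked for, the ratio of the met to the not met median was 1 in wild type and 1.5 in BD1del, so the wild-type difference was lost. A longer island has more bases with which to meet another. Reads per kb, fold and overlap with round spermatids were therefore also compared within length classes. Shares by chromosome, block and bin were taken over all lengths.

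**Figure D1:**
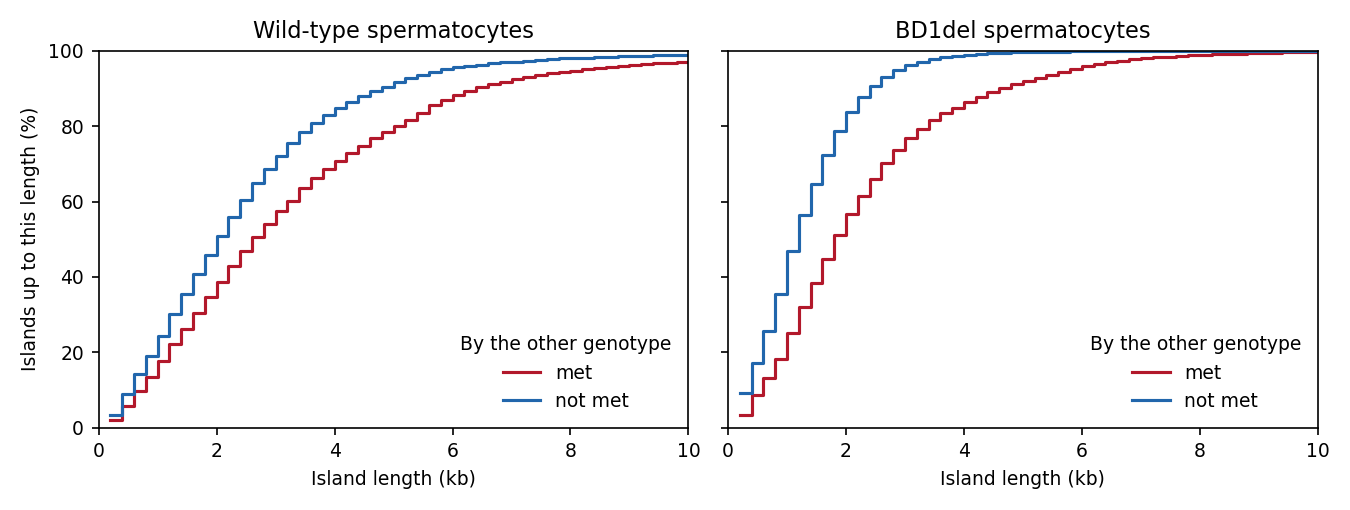
Cumulative share of islands (y axis, percent) up to a given length (x axis, kb) for islands met (red) and not met (blue) by the other genotype, in wild-type (left) and BD1del (right) spermatocytes. In both lists the red curve lies to the right, with medians of 2600 against 2000 bases in wild type and 1800 against 1200 bases in BD1del; lengths above 10 kb are not drawn.

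Within length classes, the met share in wild type rose slowly up to 4 kb and more steeply above it. Among wild-type islands of a single window 20.7% (18.0 to 23.5%) were met, and among those of 2 to 4 kb 29.2% (28.3 to 30.1%). The share was 44.7% (43.4 to 46.1%) between 4 and 10 kb. In BD1del the corresponding shares were 3.52% (3.16 to 3.92%), 16.2% (15.6 to 16.7%) and 57.3% (55.2 to 59.4%), so that the list with the low met share as a whole had the higher one among islands of 4 to 10 kb. That class held 2169 BD1del islands against 5258 in wild type. Without chromosome 1 its met share was 35.7% in BD1del and 33.2% in wild type.

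Wild-type islands that were met had more ChIP reads per kb and also more control reads per kb. Over all wild-type islands the median was 42.7 ChIP reads per kb for met islands and 39.4 for those not met. The median of control reads per kb was 46.2 for met islands (quartiles 36.2 and 61.7) and 39.4 for those not met (30.8 and 50.6). Control reads thus differed more than ChIP reads, and the median deposited fold was lower in met islands, at 1.60 against 1.75. In all 7 length classes the met islands of wild type were higher in ChIP reads per kb, higher in control reads per kb and lower in fold. The quartile ranges of met and not met islands overlap widely.

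BD1del showed the same order for control reads. Its median control density was 56.2 reads per kb in met islands (quartiles 43.3 and 73.3) and 50 in those not met (40 and 60). Among islands with a fold of 2 or more in both lists this order was reversed, the met median being 0.957 of the not met median. Over all BD1del islands, median ChIP reads per kb were 31.5 in met islands and 33.8 in those not met. Within length classes the order was the other way round in 6 of 7, with more ChIP reads per kb in the met islands. The exception was the class over 10 kb, with 36 met islands and 40 not met, where the median was 32.9 against 48.6 ChIP reads per kb and 85.8 against 198 control reads per kb.

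The shortest BD1del islands had the widest gap in control reads among the classes in which met islands were higher. Single-window BD1del islands that met wild type had a median of 105 control reads per kb, and those not met had 50. Their ChIP reads per kb were close, at 120 and 115, and their median folds were 6.74 and 13.6. Above 1000 bases the fold order changed, with 3.29 in met and 3.24 in not met islands of 1 to 2 kb and 2.57 against 2.19 at 4 to 10 kb. The list was cut by fold into 5 equal groups of 21076 islands. In the group of highest fold, with a median length of 400 bases, 3.51% were met, and in that of lowest fold, with a median of 2000 bases, 13.0%. Among islands of 1 to 2 kb alone, the met share of the 5 groups stayed between 7.31 and 8.85%.

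**Figure D2:**
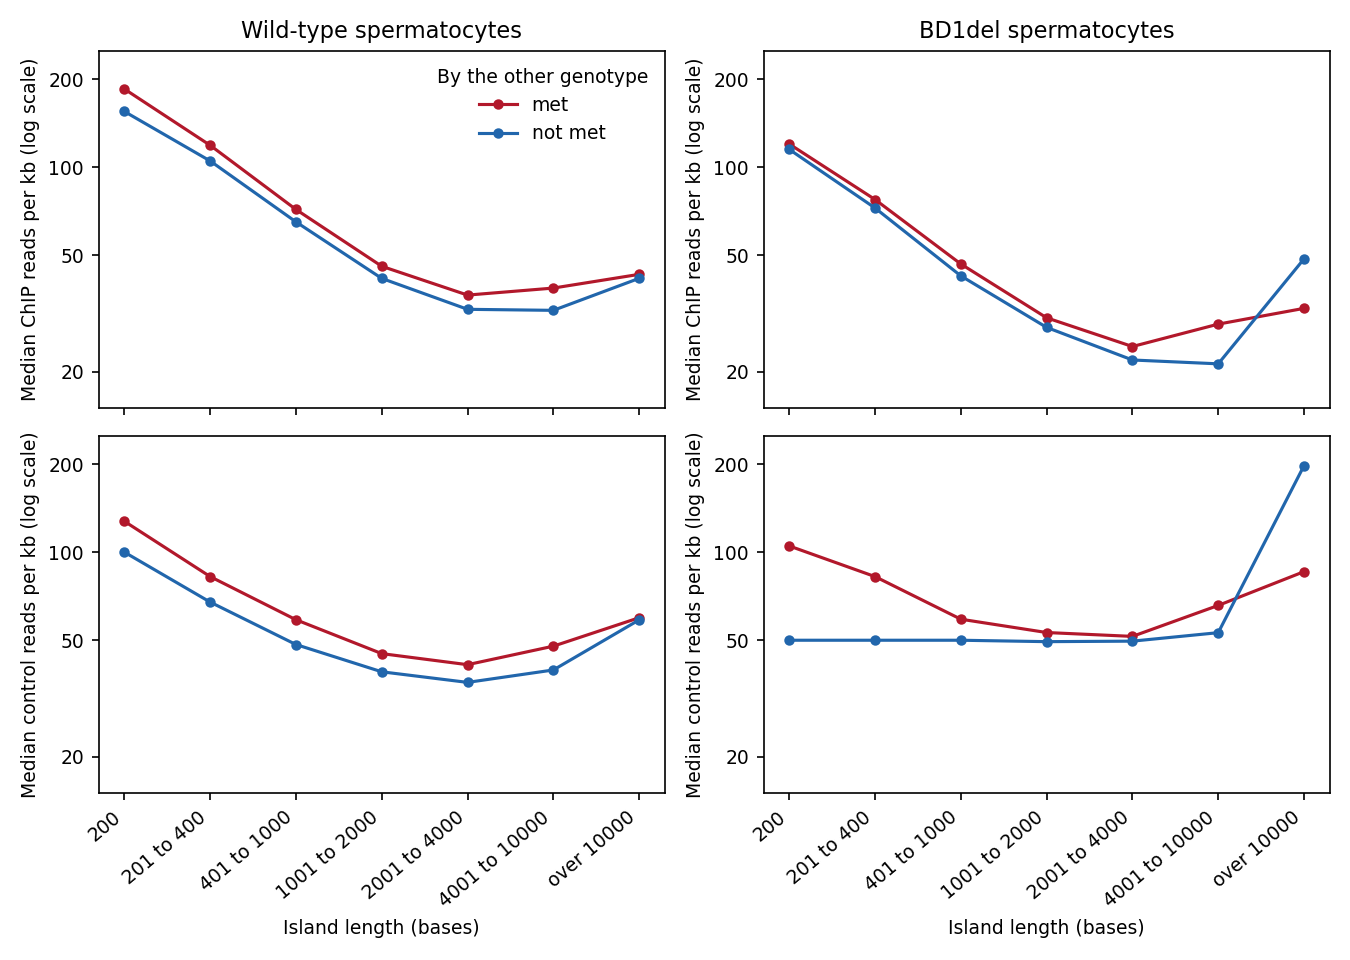
Median ChIP reads per kb (top) and control reads per kb (bottom), on log axes, for islands met (red) and not met (blue) by the other genotype in 7 classes of island length, in wild-type (left) and BD1del (right) spermatocytes. Red lies above blue in every panel except in the BD1del class over 10 kb, and met single-window BD1del islands stand far above those not met in control reads, at 105 against 50 per kb.

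In wild type the met share also fell with fold. It was 40.2% in the lowest of 5 equal groups (folds of 1.06 to 1.44, median length 4000 bases) and 22.6% in the highest (folds of 2.46 and above, median length 1000 bases). Among wild-type islands of 1 to 2 kb it was 33.4% in the lowest group and 22.9% in the highest, so a smaller difference was present at like length.

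Round spermatid islands met the 2 classes at different rates. They were not used in the split, but the split used the other genotype's spermatocyte list, which itself overlaps round spermatid islands. Of all autosomal wild-type spermatocyte islands, 58.1% met an island of wild-type round spermatids and 38.5% one of BD1del round spermatids. For islands met by BD1del spermatocytes these shares were 70.4% (69.5 to 71.4%) and 64.8% (63.8 to 65.8%). For islands not met they were 52.7% (52.1 to 53.4%) and 27.1% (26.5 to 27.7%). Of the wild-type spermatocyte islands not met, 36.7% overlapped wild-type round spermatids alone, 11.0% BD1del round spermatids alone, 16.1% both and 36.2% neither.

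The BD1del spermatocyte islands divided more sharply. Of all of them 12.7% met wild-type and 21.6% met BD1del round spermatid islands. For those that met wild-type spermatocytes the shares were 65.4% (64.4 to 66.3%) and 60.4% (59.4 to 61.4%), and for those not met 7.53% (7.37 to 7.70%) and 17.8% (17.6 to 18.1%). A met BD1del island overlaps a wild-type spermatocyte island by definition, and 58.1% of all wild-type spermatocyte islands met wild-type round spermatids. The part of that overlap in the difference was not tested. Of the BD1del islands not met, 74046 or 77.2% (76.9 to 77.4%) met no round spermatid island of either genotype, and of those met 2004 or 21.2%. The islands not met were 95938 of the 105380 BD1del islands, so the share over the whole list was only somewhat lower than theirs. Among the wild-type islands the comparable numbers were 7448 or 36.2% of those not met and 1505 or 16.8% of those met. Wild-type round spermatid islands covered 4.83% of the autosomes and BD1del round spermatid islands 5.66%. These are shares of bases, whereas the shares above count whole islands with any overlap, so they cannot be set against each other. How many islands would be met by placement alone was not computed.

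The difference between classes was present in all 7 length classes and in both lists. In BD1del islands of 1 to 2 kb, 59.9% of the met and 7.92% of the not met islands were met in wild-type round spermatids. In wild-type islands of that length the values were 62.2% and 48.0%. Without chromosome 1 they were 56.5% and 7.30% in BD1del and 58.8% and 47.3% in wild type. Met islands were denser in control reads than islands not met, as given above, and the part of this in the shared positions was not tested.

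**Figure D3:**
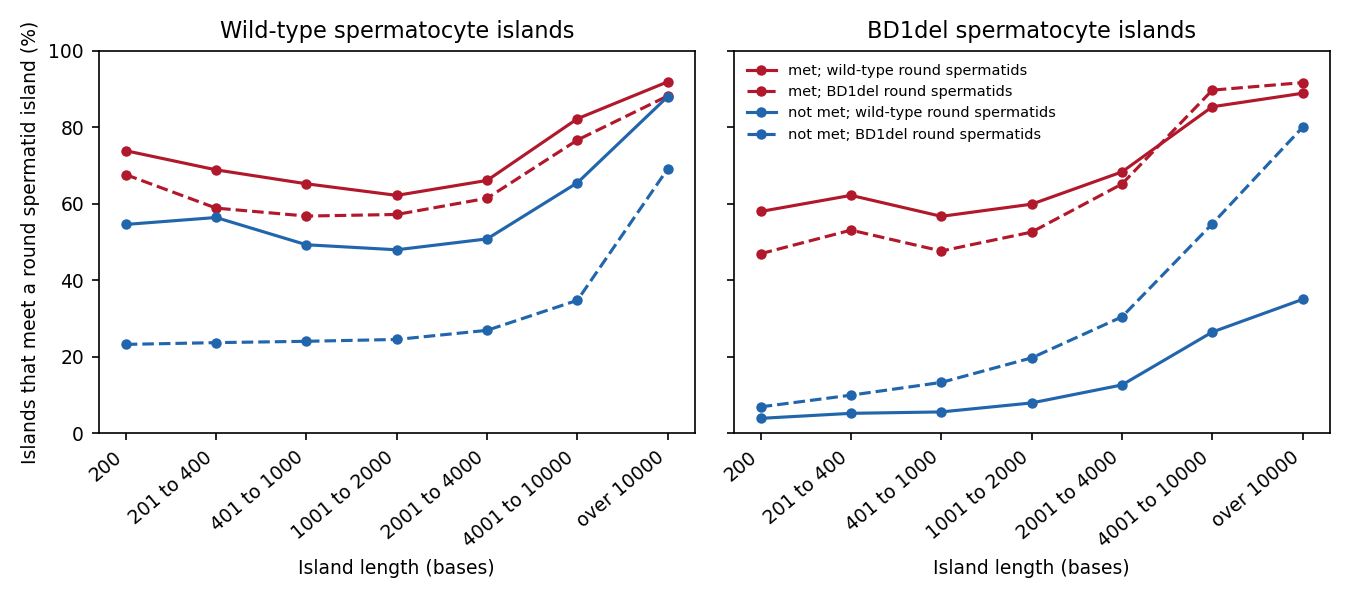
Share of wild-type (left) and BD1del (right) spermatocyte islands that meet a round spermatid island (y axis, percent) in 7 classes of island length, split by whether they were met (red) or not met (blue) by the other genotype in spermatocytes. Solid lines are wild-type and dashed lines BD1del round spermatids; among BD1del islands of 1 to 2 kb, 59.9% of the met and 7.92% of the not met meet wild-type round spermatids.

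The shared islands were unevenly spread over the chromosomes. Chromosome 1, which makes up 8.04% of the autosomal span, held 3037 of the met wild-type islands (33.8%) and 3192 of the met BD1del islands (33.8%). It held 12.2% and 8.99% of the islands not met. Of all islands it held 5552 of 29531 in wild type and 11813 of 105380 in BD1del. On chromosome 1, 54.7% (53.4 to 56.0%) of the wild-type islands and 27.0% (26.2 to 27.8%) of the BD1del islands were met. On the other 18 autosomes the wild-type share ran from 16.3% on chromosome 8 to 39.8% on chromosome 2, with a median of 22.1%. The BD1del share ran from 3.70% on chromosome 8 to 12.9% on chromosome 19, with a median of 5.59%. Without chromosome 1, 24.8% (24.2 to 25.3%) of the wild-type and 6.68% (6.52 to 6.84%) of the BD1del islands were met.

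In both lists the met share was highest on chromosome 1, lower over chromosomes 2 to 4, lowest on chromosome 8 and higher again on chromosomes 17 to 19. In wild type it was 54.7% on chromosome 1, 39.8% on chromosome 2, 29.8% on chromosome 3 and 25.6% on chromosome 4. On chromosomes 17, 18 and 19 it was 27.8%, 28.1% and 32.4%. Wild-type island density followed a similar course: 28.6 islands per Mb on chromosome 1, 12.9 on chromosome 2, 8.02 on chromosome 8 and 18.7 on chromosome 19. The median control reads per kb of wild-type islands were 46.0, 42.5, 37.2 and 43.8 on the same chromosomes. BD1del densities varied less, at 60.8, 46.9, 37.2 and 48.2 islands per Mb. Median island lengths on these chromosomes were 2800, 2400, 2000 and 1600 bases in wild type and 1600, 1200, 1200 and 1200 bases in BD1del. The part of island length, of control reads and of the other list's coverage in this course and in the concentration on chromosome 1 was not tested. The authors' mapping and scaling were not examined here.

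Across the 19 autosomes, the met shares of the 2 lists had a Spearman correlation of 0.89, and of 0.87 without chromosome 1. Both shares count overlaps of the same lists, so they are not independent. An island also has more to meet where the other list covers more. The wild-type met share had a correlation of 0.85 with the BD1del covered share, and of 0.83 without chromosome 1. The BD1del met share had one of 0.90 with the wild-type covered share, and of 0.88 without chromosome 1. The course over the chromosomes depended on the limits. Among islands with a fold of at least 2 in both lists the wild-type met share was 31.5% on chromosome 1, 25.7% on chromosome 2, 16.2% on chromosome 8 and 24.6% on chromosome 19. The BD1del share was then 2.58% on chromosome 1, below the 3.82% on chromosome 19, 3.23% on chromosome 17 and 2.79% on chromosome 18, and it was lowest on chromosome 12, at 1.48%. With the 10000 islands of lowest p in each list, wild-type chromosome 1 remained highest, at 24.2%, but chromosome 19 was at 3.94%, second lowest after chromosome 8 at 3.27%. The part of the met islands that lay on chromosome 1 was 13.1% in wild type and 12.9% in BD1del at a fold of at least 2. It was 24.7% and 25.7% at an FDR of at most 1e-10, and 40.4% and 39.9% with the 10000 islands of lowest p. Of all islands at a fold of at least 2, chromosome 1 held 878 of 9399 in wild type and 10810 of 99245 in BD1del. At the FDR limit it held 993 of 7456 and 7636 of 69265, and of the 10000 islands of lowest p it held 1496 and 1410.

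**Figure D4:**
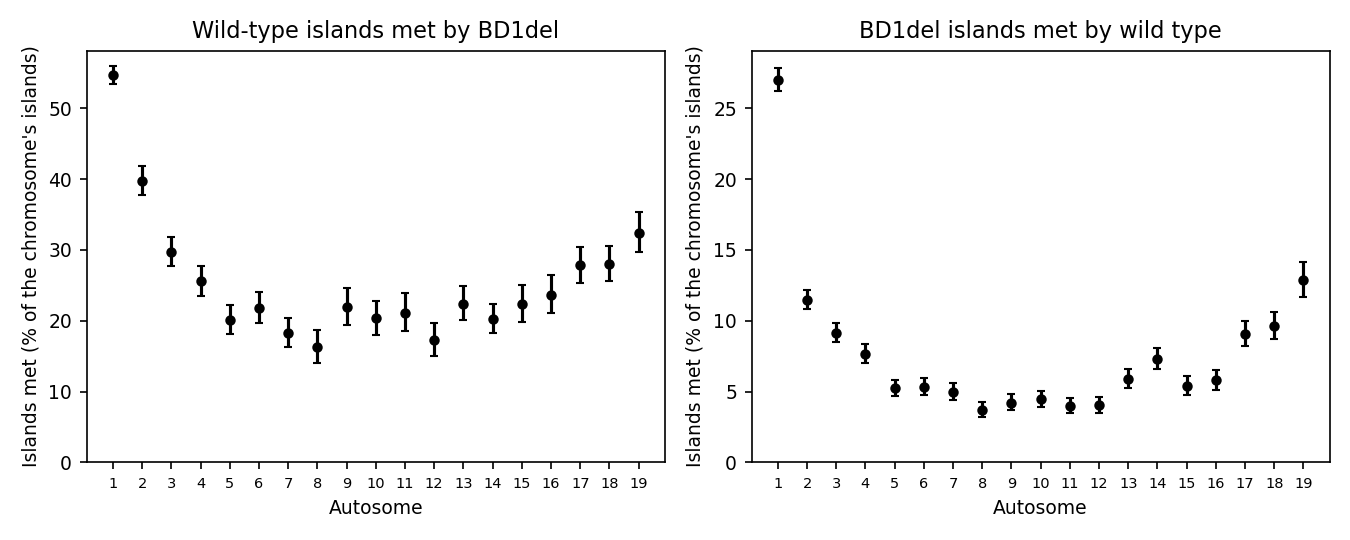
Share of islands met by the other genotype (y axis, percent; scales differ between panels) on each autosome (x axis) for wild-type (left) and BD1del (right) spermatocyte islands; bars are exact 95% binomial intervals. Chromosome 1 stands highest in both, at 54.7 and 27.0%, and chromosome 8 lowest, at 16.3 and 3.70%.

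Chromosome 1 held a proximal block, from 3 to 24 Mb, that differed from its remainder. Wild-type islands covered 47.6% of the block and BD1del islands 14.95%. In it 40.1% (38.0 to 42.2%) of the 2165 wild-type islands and 65.7% (63.2 to 68.2%) of the 1427 BD1del islands were met. Over the rest of chromosome 1 it was 64.0% (62.4 to 65.7%) of 3387 wild-type and 21.7% (20.9 to 22.5%) of 10386 BD1del islands. By bases, BD1del covered 17.9% of what wild type covered in the block and 60.01% on the rest of the chromosome, and wild type covered 57.1% and 29.3% of what BD1del covered. For scale, wild type covered 5.56% and BD1del 11.4% of all bases on the rest. The shared parts were thus near the coverage in the block and far above it on the rest. The rest of chromosome 1 alone held 24.2% of the met wild-type islands and 5.93% of those not met.

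Along the rest of chromosome 1 the coverage of the lists was correlated. In 17 stretches of 10 Mb from 30 Mb on, the covered share ran from 2.94 to 10.3% in wild type and from 8.48 to 17.2% in BD1del, with a Spearman correlation of 0.81 over the stretches. The met share ran from 45.5 to 81.0% in wild type and from 11.7 to 36.4% in BD1del. Control reads per kb of the islands ran from 45.0 to 57.5 in wild type and from 47.3 to 61.0 in BD1del. Control reads were correlated with the covered share, at 0.74 in wild type and 0.70 in BD1del, and their part in the common course was not tested. On chromosomes other than 1 and 14, 25.1% of the wild-type and 6.65% of the BD1del islands were met.

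The block on chromosome 14 from 3 to 9 Mb was 67.3% covered in wild type and 5.77% in BD1del. Its 312 wild-type islands had a median length of 9100 bases, and 16.7% (12.7 to 21.3%) were met, against 21.2% (18.9 to 23.7%) on the rest of the chromosome, with overlapping intervals. The block held 114 BD1del islands, and 68.4% (59.1 to 76.8%) of them were met. By bases, wild type covered 78.0% of what BD1del covered in the block, beside its 67.3% of the whole block. BD1del covered 6.69% of what wild type covered, beside its 5.77% of the whole block. The control density of these BD1del islands was 68.6 reads per kb at the median, against 50 on the rest of chromosome 14.

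BD1del covered more than wild type in most bins. In 2215 of 2416 autosomal bins of 1 Mb (91.7%) the BD1del islands covered the larger share, and in 190 the wild-type islands did. Of these 190 bins, 22 lay on chromosome 1 and 19 on chromosome 14, and most lay on other autosomes. The covered share of a bin had a median of 2.24% (quartiles 1.36 and 3.68%) in wild type and 5.68% (4.82 and 6.74%) in BD1del. The highest bin was at 26.5% in BD1del and at 78.3% in wild type. At least 20% was covered in 35 bins in wild type, of which 21 lay on chromosome 1 and 9 on chromosome 14, and in 9 bins in BD1del. In 3 bins both lists reached 20%.

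Bin coverage was also correlated between lists. The Spearman correlation over the bins was 0.28 between wild-type and BD1del spermatocytes. It was 0.71 between the stages in wild type and 0.56 between the stages in BD1del. Without chromosome 1 the same values were 0.16, 0.67 and 0.44. Bins of a genotype share the read set as well as the mouse line, and bins are not replicates.

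**Figure D5:**
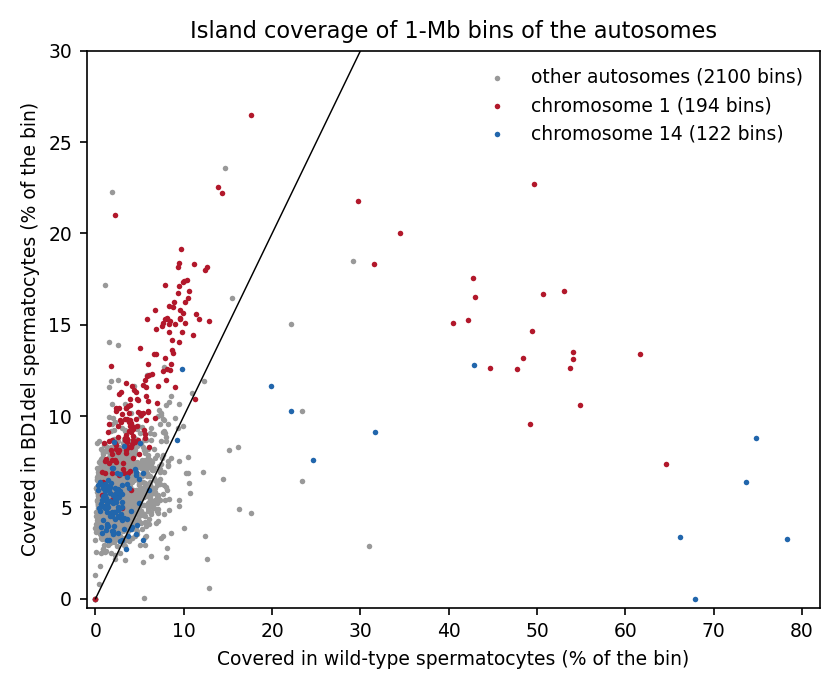
Share of each 1-Mb autosomal bin covered by islands in wild-type (x axis, percent) and BD1del (y axis, percent) spermatocytes; each point is a bin, red on chromosome 1, blue on chromosome 14, grey elsewhere, and the line marks equal coverage (the axes have different scales). Most bins lie above the line (2215 of 2416), and the bins far to the right belong mainly to chromosomes 1 and 14.

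The 5 bins with the largest excess of wild type were adjacent, on chromosome 14 from 3000001 to 8000000. There wild-type islands covered 72.2% and BD1del islands 4.37%, with 39 of 289 wild-type islands met. Coverage in round spermatids was 45.2% in wild type and 12.7% in BD1del. The excess of wild type was seen in both stages.

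The 5 bins with the largest excess of BD1del were apart from each other. On chromosome 8 from 19000001 to 20000000, BD1del covered 22.3% and wild type 1.90%. On chromosome 1 from 85000001 to 86000000 the values were 21.0% and 2.18%. On chromosome 5 they were 17.2% and 1.02% from 15000001 to 16000000, and 14.1% and 1.56% from 95000001 to 96000000. On chromosome 11 from 3000001 to 4000000 they were 13.9% and 2.56%. In round spermatids BD1del was also the higher in all 5 bins, with 21.3% against 6.42% on chromosome 8 and 7.72% against 0.86% on chromosome 1. BD1del round spermatid islands also covered more of the autosomes as a whole, at 5.66% against 4.83%. In how many of all bins they covered more was not counted. On chromosome 5 round spermatid coverage was 11.2% against 6.76% and 7.22% against 5.46%, and on chromosome 11 it was 6.04% against 3.22%.

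Single long islands of low fold lay in 3 of these bins. They were the 3 longest BD1del islands without a wild-type counterpart. The island on chromosome 8, 19917201 to 20006200, held 353 control reads per kb. The one on chromosome 11, 3019201 to 3100000, held 829 control reads per kb at a fold of 1.06. The island of 50.2 kb on chromosome 1, 85069001 to 85119200, held 262 at a fold of 1.06. All 3 were thus several times as dense in control reads as the median BD1del island not met, at 50 per kb. The 40 BD1del islands not met of over 10 kb, to which these 3 belong, had a median of 198 per kb. The bins on chromosome 5 had no BD1del island beyond 28.6 kb.

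Where islands did meet, they rarely had the same extent. The lists formed 9680 overlapping pairs. The wild-type island was the longer one in 62.1% of them and the BD1del island in 31.4%, and 294 pairs (3.04%) had the same start and end. A met wild-type island was covered by BD1del to a median of 60.0% of its length, and 22.9% were covered whole. A met BD1del island was covered by wild type to a median of 87.5%, and 43.8% were covered whole. Most met islands met exactly 1 island of the other list: 93.2% in wild type and 97.5% in BD1del.

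Across all pairs, control density had the highest correlation between genotypes. The Spearman correlation between genotypes was 0.50 for control reads per kb, 0.29 for ChIP reads per kb, 0.37 for the deposited fold and 0.36 for length. These are across pairs of islands, which share their position and are not independent replicates. In the 294 pairs of the same start and end the order was another, with 0.87 for ChIP reads per kb, 0.79 for control reads per kb and 0.51 for fold.

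Most islands not met lay more than 1000 bases from any island of the other genotype. How many would lie closer by the density of the other list alone was not computed. Of the wild-type islands not met, 9.19% had a BD1del island within 1000 bases. The median distance was 7600 bases, where BD1del islands were a median of 14200 bases apart. Of the BD1del islands not met, 2.29% had a wild-type island within 1000 bases. Their median distance was 35200 bases, where wild-type islands were a median of 40000 bases apart.

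A few positions held a large part of the reads in both genotypes. The island with most reads ran on chromosome 9 from 2999801 to 3038800 in wild type and to 3039800 in BD1del. It held 452237 ChIP and 359691 control reads in wild type and 456487 ChIP and 309999 control reads in BD1del. These were 10.3% and 8.46% of the ChIP reads in autosomal islands. The raw ratio of ChIP to control reads was 1.26 and 1.47, and the deposited folds were 2.25 and 8.30.

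The other leading pairs by reads per kb were of the same kind. On chromosome 2, the shared island started at 98499601 and ended at 98507800 in wild type and at 98507600 in BD1del, with 8665 and 9127 control reads per kb. On chromosome 9 it started at 35112601, with 6208 and 8572 control reads per kb, on chromosome 12 at 75904601, with 3451 and 3729, and on chromosome 6 with 3054 and 2080. All 5 pairs met islands of both round spermatid lists, as did 52.0% of all met wild-type and 47.0% of all met BD1del islands. In these pairs the raw ratio of ChIP to control reads ran from 0.84 to 1.26 in wild type and from 0.92 to 1.47 in BD1del.

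Sums of reads depended on such islands more than counts of islands did. Of the 1% of islands densest in control reads, 46.6% of 296 in wild type and 52.8% of 1017 in BD1del were met. Met islands held 50.5% of the wild-type ChIP reads, and 42.1% without those densest islands. In BD1del they held 24.5%, and 13.8% without them. The bases of met islands, at 37.9% and 14.6% of each list, became 37.7% and 14.2%.

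The leading islands by fold, among those with 10 or more control reads, were mostly short: 10 of the 12 described next span at most 1000 bases. Among met islands the leading wild-type one was on chromosome 1, 120284801 to 120287000, with 148 ChIP and 10 control reads and a fold of 26.5. The next was on chromosome 14, 120749201 to 120750200, with 580 ChIP and 44 control reads and a fold of 23.6, and it met islands in both round spermatid lists. The third was on chromosome 7, 3524401 to 3525200, with a fold of 22.9. In BD1del the leading met island lay on chromosome 17, 4626001 to 4626800, with 1426 ChIP and 88 control reads and a fold of 91.4. A single-window island followed on chromosome 1, 12634801 to 12635000, with 249 ChIP and 23 control reads and a fold of 61.0, and the third was on chromosome 1, 14809601 to 14810000, at 43.9. Both lie in the proximal block.

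Among islands not met, the 3 leading ones of BD1del all met BD1del round spermatid islands, as did 17.8% of all BD1del islands not met. The share among other islands of high fold was not counted. The BD1del island of highest fold, chromosome 6, 132413401 to 132414000, had 521 ChIP and 47 control reads and a fold of 62.5, met both round spermatid lists, and the nearest wild-type spermatocyte island was 3000 bases away. The next were on chromosome 2, 104944201 to 104944800, at a fold of 53.91, and on chromosome 9, 88447801 to 88448200, at 53.88. Neither of these met a wild-type list. In wild type the island on chromosome 15, 99222801 to 99224600, had 108 ChIP and 11 control reads and a fold of 17.6, with a BD1del island 2800 bases away, and it met no round spermatid list. It was followed by chromosome 2, 27395201 to 27396000 (fold 16.4), seen in both round spermatid lists, and chromosome 7, 29884001 to 29884600 (fold 15.6), seen in neither.

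Of the islands with the same start and end in both lists, 3 stood out by fold in both. The first, on chromosome 12, 104793201 to 104793600, had 94 ChIP and 10 control reads in wild type and 30 ChIP and 13 control reads in BD1del, with folds of 16.8 and 13.0. The second, on chromosome 8, 110739001 to 110739600, had folds of 11.1 and 7.79. The third, on chromosome 5, 130619601 to 130620800, had folds of 14.5 and 7.18. All 3 had 10 control reads in wild type, the fewest that the limit allowed. Only the third met a round spermatid island, of BD1del.

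The longest islands differed in fold. The longest of all met wild-type islands, on chromosome 6 from 114439601 to 114588400, spanned 148.8 kb at a fold of 2.13. The next, on chromosome 8 from 126061401 to 126149200, spanned 87.8 kb at a fold of 3.01. Both lay above the wild-type median fold of 1.70, and BD1del islands covered them to 5.78% and 3.87%. The 3 longest wild-type islands without a BD1del counterpart were all in the chromosome 14 block: 6359801 to 6399400 with a length of 39.6 kb, 8220401 to 8258000 with 37.6 kb, and 3057001 to 3094200 with 37.2 kb. Their folds were 1.23, 1.12 and 1.36, and all met islands of both round spermatid lists. Of all wild-type islands not met of over 10 kb, 88.0% met wild-type and 69.1% met BD1del round spermatid islands. The third longest of the met wild-type islands, chromosome 4, 145246401 to 145327000, spanned 80.6 kb at a fold of 1.06 and was covered by 4 BD1del islands to 13.2%. After the island on chromosome 9 described above, the longest met BD1del islands were neighbours within the chromosome 14 block, 6974201 to 7002400 and 6950201 to 6973200. Wild-type islands covered them to 99.3 and 100%, and their folds were 1.28 and 1.14.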

How the data were processed

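Anti-Brdt ChIP-seq island lists of spermatocytes from wild-type and BD1del mice were used, with the round spermatid lists for comparison. The submitters' processing notes name SICER and the build mm9. A window of 200 bases, a gap of 600 bases and an FDR limit of 0.01 were read from the names of the lists. No label gives the SICER version, the aligner, the read filters or the library that served as control. ChIP and control counts are whole reads in each island, deposited by the authors and not normalized. The deposited p-value and FDR of an island are the authors' own. So is the deposited fold, a ratio that equals ChIP over control reads times 1 constant per list. Levels of fold are on a different scale in each list; the rule for pairs of equal extent alone takes the lower of the 2 folds. Genes were not assigned, because the gene table used here is of another build.

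Overlaps, reads per kb, 1-Mb bins (without 11 end bins under 500 kb) and exact intervals were computed with Python 3.11.15, numpy 2.4.6, pandas 2.3.3 and scipy 1.17.1, in 1-based coordinates. The overlap counting was tested on simulated lists. With 1 library per genotype no test between genotypes was run. Islands were named by rule. In each list and class these were the 3 of highest fold among islands with 10 or more control reads, and the 3 longest. Pairs were the 5 leading both lists in ChIP reads per kb (1000 bases or more) and the 3 of equal extent with the highest lower fold, all with 10 or more control reads in both lists; this limit was not in the written rule for pairs of equal extent. Bins were the 5 that differed most in each direction. The members, regions and lists were chosen with earlier results of these data known. The chromosome profile at other limits, the removal of chromosome 1 and the shortened BD1del list were added after seeing the data.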

Additional observations from a re-analysis of the deposited data

How the results depend on the processing

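No paired analysis was possible because each genotype had 1 library. With 1 library a side no replicate could be left out either, and depth, read set and genotype cannot be told apart. Each group of 4 values gives the met share of wild-type islands, the met share of BD1del islands, the shared part of wild-type bases and that of BD1del bases, in percent. As reported they were 30.4, 8.96, 19.2 and 10.7. With FDR at most 1e-10 they were 25.5, 2.93, 16.5 and 4.16. With a fold of at least 2 they were 22.4, 2.17, 13.0 and 1.39. With islands of at least 1000 bases they were 27.4, 10.1, 18.5 and 11.4. Without dense 1-Mb bins they were 29.4, 7.91, 19.9 and 9.23. Without chromosomes 1 and 14 they were 25.1, 6.65, 13.8 and 6.49.

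With the 10000 islands of lowest p in each list, 8.97% of wild-type islands, 9.1% of BD1del islands, 8.76% of wild-type bases and 19.1% of BD1del bases were shared. Without the 1% densest in control reads, 29.0% of wild-type islands, 8.48% of BD1del islands and 18.1% of wild-type bases were. With at least 10 control reads, 9.18% of BD1del islands were met. An overlap of at least 50% left 18.7% and 7.04% of islands met, and counting islands within 1000 bases gave 36.8% and 11.0%. Of the settings chosen after seeing the data, leaving out chromosome 1 gave 24.8, 6.68, 13.3 and 6.70. Keeping the 50000 BD1del islands of lowest p gave 16.7, 9.90, 11.7 and 16.3. The met share of wild type was above that of BD1del in every setting in which both are given here except that of 10000 islands each. Wherever it was above, the wild-type list was also the shorter one, which by itself raises the share met. Merging islands within 1000 bases left both met shares within their reported intervals.

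Among BD1del islands, 3 ratios of the met over the not met median changed side. At folds of 2 and above this came to 0.957 for control reads per kb and 1.02 for the deposited fold. Among islands of at least 1000 bases it was 1.02 for ChIP reads per kb. With the 10000 islands of lowest p in each list such ratios moved further from 1. In BD1del that of length went from 1.5 to 4.67, that of control reads per kb from 1.12 to 1.70 and that of fold from 0.81 to 0.36, and in wild type that of length from 1.3 to 2.11. With the 50000 BD1del islands of lowest p the BD1del length ratio was 2.5. The cause was not tested.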
